A study of Caenorhabditis elegans with 2 samples.

Results

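The 10 genes examined here encode the central proteins of insulin signalling in the nematode Caenorhabditis elegans and its pair of 14-3-3 proteins: daf-2, age-1, daf-18, pdk-1, akt-1, akt-2, sgk-1, daf-16, ftt-2 and par-5. They are 10 of 19973 protein-coding genes on the nuclear chromosomes. They were chosen from the pathway by name with earlier signal values of these same lists in view, among them those at pdk-1 and ftt-2, so every count and value for them is a description without a test. The data are chromatin immunoprecipitation and sequencing (ChIP-seq) of CEH-9, a homeodomain protein, in whole L3 larvae of pooled sexes from strain OP202, genotype unc-119(ed3) III; wgIs202. This line stably expresses CEH-9 fused at its C terminus to a GFP-FLAG tag. There was 1 group of 2 libraries, biological replicates 1 and 3, 1 technical replicate each, and no second genotype, stage or treatment; age is given as unknown. Whole larvae mix all tissues, and the transgene's regulatory sequence is not stated. The labels give ceh-9 as the target, while a free-text field calls both libraries input, and these statements conflict.

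Insulin signalling in C. elegans controls dauer formation, metabolism and lifespan. The receptor DAF-2 activates the phosphoinositide 3-kinase AGE-1, whose lipid product is removed by the phosphatase DAF-18. The lipid brings PDK-1 to phosphorylate the kinases AKT-1, AKT-2 and SGK-1. AKT phosphorylates the FOXO transcription factor DAF-16, and 14-3-3 proteins bind the phosphorylated DAF-16 and hold it in the cytoplasm. FTT-2 and PAR-5 are the 14-3-3 proteins of the worm, and their annotated products had 86.2% identity over 247 aligned residues, against 65.1% over 524 residues for AKT-1 and AKT-2.

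Bases around the region centres are shown for ftt-2 and pdk-1, the genes whose regions entered the authors' reproducible set, for sgk-1, another kinase gene whose strongest region held a GA repeat, and for daf-2, whose second strongest region held the longest run of pyrimidines. Each sequence runs for 201 bases, 100 to either side of the region's centre, 5′ to 3′ on the strand of the named gene, from the RefSeq copy of build ce11 (WBcel235). Capitals mark GAGAAAGA or GAGAGAGA on either strand. The sgk-1 and daf-2 sequences were picked for their repeats. The strongest regions of par-5, daf-16 and daf-2 are not shown and held neither word. The positions are chrX:11605772-11605972 for ftt-2 (minus strand), chrX:1323086-1323286 for pdk-1 (plus strand), chrX:16266023-16266223 for sgk-1 (minus strand) and chrIII:3037301-3037501 for daf-2 (minus strand).
ftt-2: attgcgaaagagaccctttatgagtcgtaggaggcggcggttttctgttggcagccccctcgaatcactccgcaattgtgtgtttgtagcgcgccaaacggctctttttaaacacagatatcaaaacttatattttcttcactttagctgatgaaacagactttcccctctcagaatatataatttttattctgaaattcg
pdk-1: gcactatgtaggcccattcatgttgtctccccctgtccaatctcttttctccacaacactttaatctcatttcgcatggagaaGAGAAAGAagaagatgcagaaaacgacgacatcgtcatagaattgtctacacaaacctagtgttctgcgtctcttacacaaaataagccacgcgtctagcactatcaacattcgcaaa
sgk-1: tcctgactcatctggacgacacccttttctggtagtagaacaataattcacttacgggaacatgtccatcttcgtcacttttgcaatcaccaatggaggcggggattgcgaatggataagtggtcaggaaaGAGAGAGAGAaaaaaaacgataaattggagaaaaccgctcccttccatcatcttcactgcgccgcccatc
daf-2: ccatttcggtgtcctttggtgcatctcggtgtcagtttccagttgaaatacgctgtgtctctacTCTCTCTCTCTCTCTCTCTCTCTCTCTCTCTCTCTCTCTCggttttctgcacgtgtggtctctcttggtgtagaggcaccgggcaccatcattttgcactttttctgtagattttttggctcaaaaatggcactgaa
In pdk-1 the word lay inside a run of 20 purines that ended 4 bases before the centre. In sgk-1 overlapping copies lay inside 23 purines from base 25 to base 47 after the centre. In daf-2 a run of 41 pyrimidines, mostly a CT repeat, held 17 overlapping copies and covered the centre. The ftt-2 sequence had none of these words, and its longest run was 12 pyrimidines.

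Each region in the deposited lists has a signal value from the authors' peak caller, whose scale is not stated and which was read only within a list. The pooled list held 10489 regions, 28 of them at a q-value under 0.05, and the authors' reproducible set (peaks that passed their irreproducible discovery rate threshold) was 45 of these. The replicate lists held 30000 regions each and include background. Replicate 1 had 3048 regions at a q-value under 0.05 and replicate 3 had 24, so support in replicate 3 rests mostly on regions that did not reach it. Both replicates enter the pooled and reproducible lists, which therefore are not independent of them. Ranks are by signal value among nuclear regions, with 1 the strongest. Read depth is unknown here.

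Of the 10 genes, 2 had a reproducible peak between 5000 bp upstream of the outermost start and the gene end: ftt-2 and pdk-1. Over all protein-coding genes, 0.3% had one, and 0.879% of those on chromosome X, where 2 of the 4 members on X had one. The same 2 genes had a pooled region at a q-value under 0.05, against 0.17% of all protein-coding genes. A region among the 500 strongest of the pooled list was found at 6 of the 10 (ftt-2, pdk-1, par-5, daf-16, sgk-1 and daf-2), against 3.85% of all. Any pooled region was present at 7 of the 10, against 56% of all, and akt-1, akt-2 and daf-18 had none. The members' windows had a median length of 10.9 kb, against 7.03 kb for all protein-coding genes, which raises the number of regions they can hold. The longest were those of daf-2 (51333 bp) and daf-16 (31206 bp), with 7 and 8 pooled regions. The shares of genes above do not allow for window length. The members' windows together held 25 pooled regions, or 1.55 per 10 kb, where the windows of all protein-coding genes had 1.10.

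**Figure D1:**
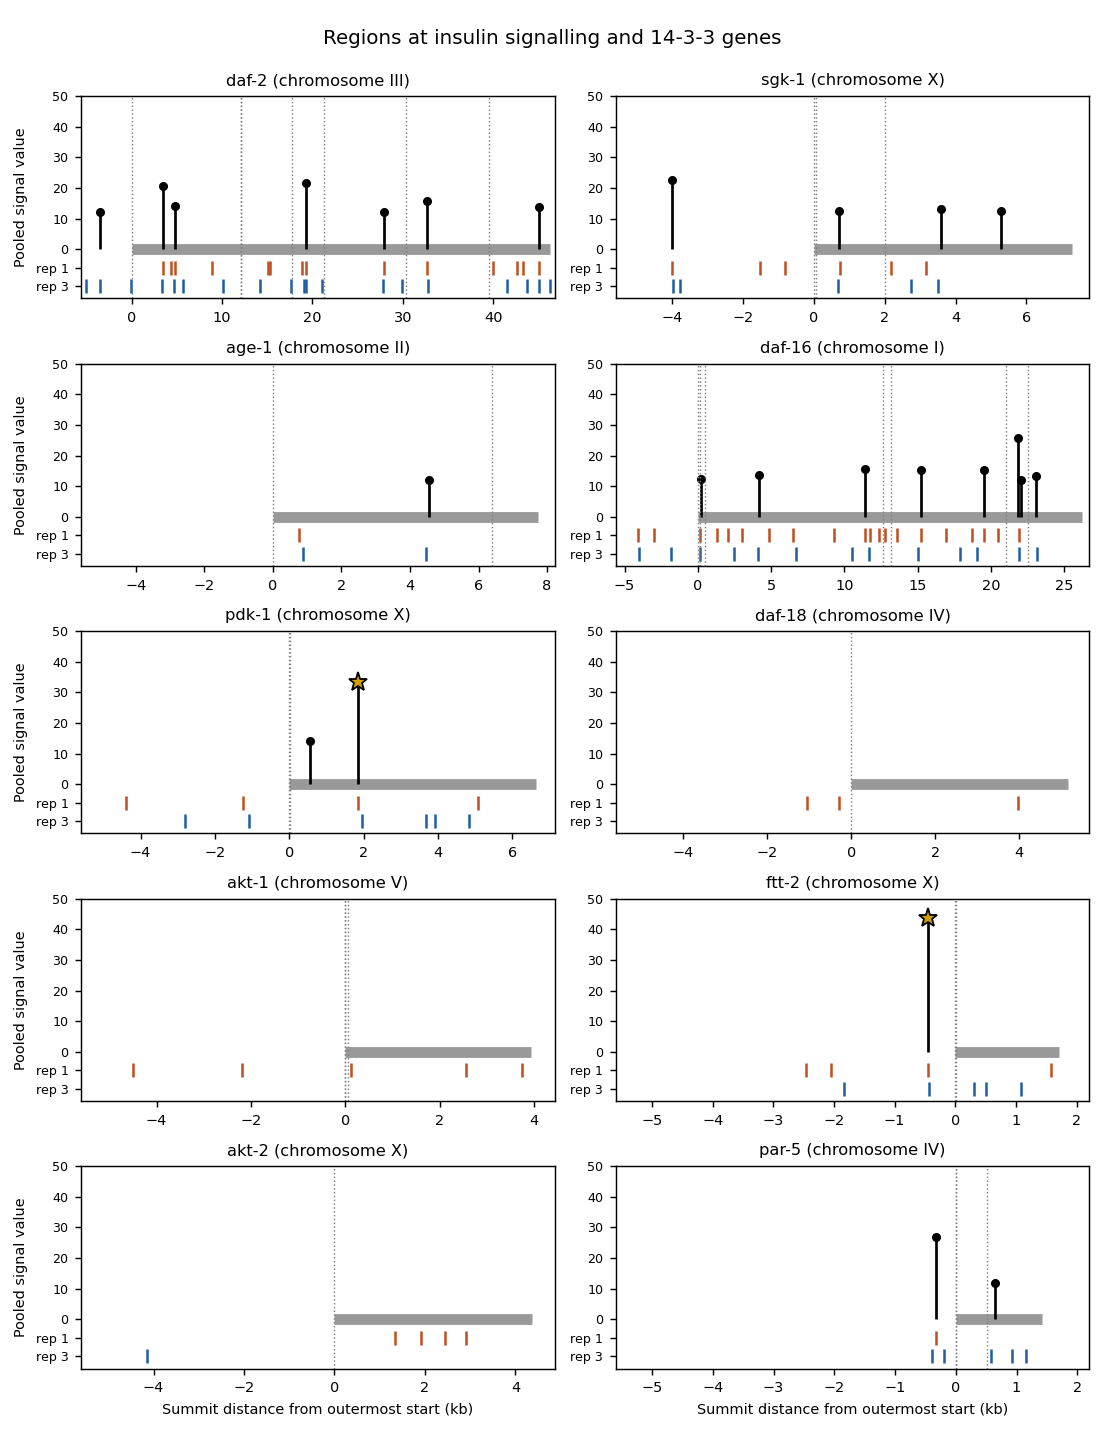
Regions at each of the 10 genes by the distance of the region centre from the outermost annotated start in kb, with upstream negative. Black stems give the pooled signal value, stars mark reproducible peaks, grey bars the gene, dotted lines annotated transcript starts, and coloured ticks the centres of replicate 1 and replicate 3 regions (positions only); the stars at ftt-2 (43.8) and pdk-1 (33.4) are the tallest stems.

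The gene of a 14-3-3 protein, ftt-2, carried the strongest region of the 10 genes in the pooled list and in replicate 1. In replicate 3, daf-16 (18.3), sgk-1 (13.3) and par-5 (11.8) had stronger regions than ftt-2 (11.3). At ftt-2 (WBGene00001502, chromosome X, 11603708 to 11605419, minus strand), a reproducible peak from 11605714 to 11606029 had a pooled signal value of 43.8, rank 9 and a q-value of 0.0189. Its centre lay 453 bp and 460 bp upstream of the 2 annotated starts. In replicate 1 the region at this place had a signal value of 24.7, rank 32 and a q-value of 0.00134, with the same centre. In replicate 3 it had 11.3, rank 1147 and a q-value of 0.503, with its centre 12 bp away. Both replicates thus had a region here, far stronger in rank in replicate 1.

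The ftt-2 peak lay inside F52D10.7, a non-coding RNA gene, and 93 bp upstream of F52D10.12, another one, whose start was nearer than that of ftt-2. No other protein-coding gene had the peak in its window. By the highest pooled value in its window, ftt-2 was in place 8 among protein-coding genes. In pooled rank its neighbours were a region 147 bp upstream of a tRNA gene (WBGene00023117, 44.7, rank 8), inside ZK1193.2, and one inside mom-1, with cest-16 the nearest start (40.8, rank 10). Apart from the peak, replicate 1 had 3 weaker regions in the ftt-2 window. One of them, from 11603691 to 11603994 at the 3′ end of the gene, had a signal value of 11.5, rank 1581 and a q-value of 0.0271, with no pooled region. Replicate 3 had 4 others (5.15 to 9.60), of which 3 lay in coding exons.

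The other 14-3-3 gene also had its strongest region just upstream. At par-5 (WBGene00003920, chromosome IV, 11820506 to 11821924, minus strand), a pooled region from 11822092 to 11822407 had a signal value of 26.9, rank 107 and a q-value of 0.277. Its centre lay 326 bp, 333 bp and 832 bp upstream of the 3 annotated starts. It was not in the reproducible set, whose lowest value was 30.7. The region was shared with M117.3, a divergently transcribed gene whose start lay 44 bp from the centre. In replicate 1 it had a signal value of 12.6, rank 1001 and a q-value of 0.0151. In replicate 3 there were 2 overlapping regions, with centres 71 bp (8.02, rank 6672) and 129 bp (11.8, rank 893) from the pooled one. A second, weak pooled region lay in the coding sequence of par-5, 141 bp downstream of the innermost start (11.97, rank 10115), and was matched in replicate 3 alone (rank 14780). Replicate 1 had no other region in the par-5 window, and replicate 3 had 2 more in exons (5.06 and 7.06).

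Among the kinase genes, pdk-1 had the highest value in the pooled list and in replicate 1, while in replicate 3 it was sgk-1 (13.3, against 10.3 at pdk-1). PDK-1 is the kinase that activates the AKT and SGK kinases. At pdk-1 (WBGene00003965, chromosome X, 1321344 to 1327986, plus strand), a reproducible peak from 1323028 to 1323343 had a pooled signal value of 33.4, rank 25 and a q-value of 0.0189. It was intronic in both annotated transcripts, 1842 bp and 1833 bp downstream of their starts, and pdk-1 had the nearest annotated start of any gene. In replicate 1 it had a signal value of 22.5, rank 47 and a q-value of 0.00134. In replicate 3 it had 10.3, rank 2091 and a q-value of 0.557, with its centre 106 bp away. The rank was again far higher in replicate 1 than in replicate 3.

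The pooled neighbours of the pdk-1 peak in rank were a region 26 bp from the start of T26E3.4 (34.3, rank 24) and one inside kin-20, which encodes a casein kinase 1 family protein (33.3, rank 26). The nearest start to the latter was that of F46F2.9, a non-coding RNA gene, 176 bp away. Another pooled region of pdk-1, 563 bp from the outermost start in an intron (14.1, rank 5252), had no region within 200 bp in either replicate. Replicate 1 had 3 other regions in the pdk-1 window (4.78 to 8.60) and replicate 3 had 5 (4.53 to 9.995), none at a q-value under 0.05. The first pooled regions outside the pdk-1 window lay 6833 bp upstream (12.9, rank 7720) and 10825 bp downstream of the outermost start (13.7, rank 5996). Those outside the ftt-2 window lay 6036 bp upstream (13.2, rank 7079) and 5846 bp downstream (13.3, rank 6838).

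sgk-1 encodes a kinase related to AKT. At sgk-1 (WBGene00004789, chromosome X, 16254842 to 16262122, minus strand), the strongest of 4 pooled regions ran from 16265965 to 16266280 with a signal value of 22.8, rank 339 and a q-value of 0.448. It lay 4001 bp, 4072 bp and 5995 bp upstream of the 3 starts. The gene mua-6, which encodes an intermediate filament protein, lies between this region and sgk-1, and the centre was 437 bp upstream of the mua-6 start. The region was also within the antisense RNA gene W10G6.5, whose start, 180 bp from the centre, was the nearest of any gene. The centre was thus nearer to the starts of W10G6.5 and mua-6 than to any start of sgk-1. Replicate 1 had a signal value of 11.7 here (rank 1467, q-value 0.0258). Replicate 3 had 6.08 (rank 15947) at 10 bp and a stronger region of 13.3 (rank 358) at 220 bp, beyond the 200 bp used for support. The other 3 pooled regions of sgk-1 lay within the gene and were weak, from 12.3 to 13.0, at ranks 7468 to 9121. The one at 699 bp from the outermost start was matched in both replicates (ranks 10181 and 21274), the one at 3592 bp in replicate 3 alone, and the one at 5279 bp in neither.

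The genes of the AKT kinases had no pooled region. At akt-1 (WBGene00000102, chromosome V, 10248905 to 10252845), replicate 1 had 5 regions with signal values from 4.26 to 7.70, and replicate 3 had none. The strongest, at the first exon (10248876 to 10249179), ranked 7485 with a q-value of 0.197. At akt-2 (WBGene00000103, chromosome X, 14147700 to 14152070), replicate 1 had 4 regions from 4.80 to 7.80, all inside the gene. Replicate 3 had 1 region of 6.93 (rank 11123), 4150 bp upstream and inside ceh-89. No place at either gene was covered in both replicates.

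**Figure D2:**
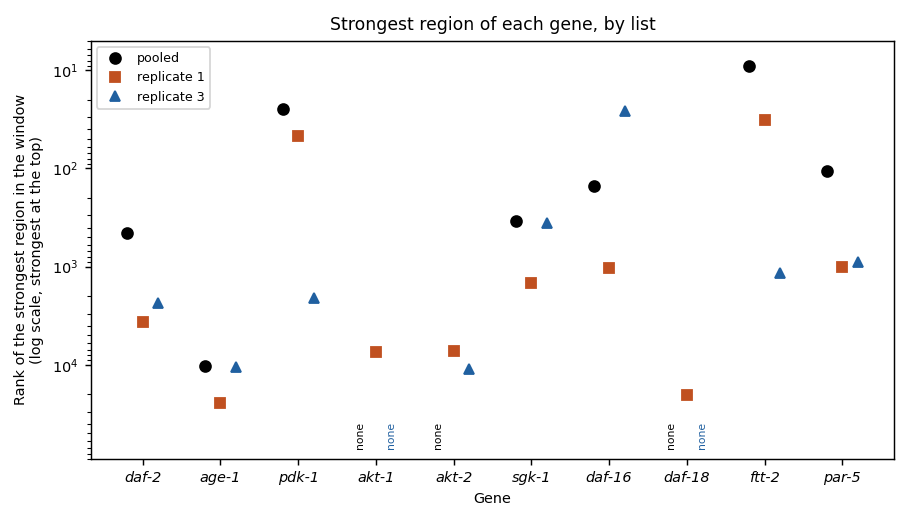
Rank of the strongest region in the window of each gene in the pooled list (circles), replicate 1 (squares) and replicate 3 (triangles), on a log axis with the strongest at the top. The strongest regions of 1 gene can lie at different places in different lists; ftt-2 (9 and 32) and pdk-1 (25 and 47) rank highest in the pooled list and replicate 1, and daf-16 (26) in replicate 3.

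Of the receptor gene and the genes whose products make or remove its lipid signal, daf-2 had 7 pooled regions, age-1 had 1 and daf-18 had none. At daf-2 (WBGene00000898, chromosome III, 2994514 to 3040846, minus strand), the pooled regions had signal values from 12.2 to 21.6, none in the reproducible set. The strongest ran from 3021395 to 3021710 in an intron (21.6, rank 459, q-value 0.553). It lay downstream of 4 of the 7 annotated starts, by 19293 bp, 7247 bp, 7149 bp and 1544 bp, and upstream of the other 3, by 1947 bp, 11085 bp and 20241 bp. Replicate 1 had a signal value of 9.48 there (rank 3635) and replicate 3 had 7.74 (rank 7541). Neither replicate reached a q-value of 0.05 at any place in daf-2.

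The second daf-2 region, from 3037243 to 3037558, was the one with the CT repeat (20.8, rank 583, q-value 0.605). It lay in the intron 3445 bp downstream of the outermost start and 142 bp inside linc-143, a long non-coding RNA gene. Its signal value was 8.99 in replicate 1 (rank 4462) and 10.0024 in replicate 3 (rank 2482). Another region in linc-143 lay 4768 bp from the outermost start (14.03, rank 5402), with rank 23990 in replicate 1 and rank 2364 in replicate 3. The remaining 4 had values from 12.2 to 15.8. They lay 3535 bp upstream within the cuticlin-like gene cutl-25, and 27917 bp, 32699 bp and 45080 bp downstream of the outermost start. The last 3 were matched in both replicates and the one in cutl-25 in replicate 3 alone. In all, replicate 1 had 14 regions in the daf-2 window (4.12 to 9.48) and replicate 3 had 19 (4.50 to 10.1).

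At age-1 (WBGene00000090, chromosome II, 11519328 to 11527054, minus strand), the single pooled region (11522356 to 11522671) was among the weakest of the list, with a signal value of 11.9 and rank 10229. It lay in an intron, inside the overlapping gene Y62F5A.10, with a region in replicate 3 (7.05, rank 10580) and none within 200 bp in replicate 1. Its centre was 4540 bp downstream of the outer start and 1868 bp upstream of the inner one. Nearer the outer start, a coding exon had a weak region in each replicate without a pooled one, at 755 bp in replicate 1 (4.56, rank 24553) and 888 bp in replicate 3 (6.36, rank 14064). At daf-18 (WBGene00000913, chromosome IV, 420011 to 425177, minus strand), replicate 1 had 3 regions from 4.92 to 5.08, and replicate 3 had none. The nearest to the daf-18 start was 283 bp upstream of it, at rank 20520.

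daf-16, the target of the pathway, had the most pooled regions, 8 with an overlapping pair included, over a window of 31206 bp, against 7 at daf-2. At daf-16 (WBGene00000912, chromosome I, 10750498 to 10776703, plus strand), the strongest ran from 10772177 to 10772492 with a pooled signal value of 25.6, rank 150 and a q-value of 0.304. It was intronic to the longer transcripts, 664 bp upstream of the innermost start and 827 bp downstream of the next one. From the other 5 starts it was 8681 bp, 9232 bp, 21375 bp, 21703 bp and 21837 bp downstream. In replicate 3 this place had a signal value of 18.3, rank 26 and a q-value of 0.0588. In replicate 1 it had 10.4, rank 2486 and a q-value of 0.0396. By rank, the order of the replicates was thus the reverse of that at ftt-2 and pdk-1. The q-value was lower in replicate 1 at all of these places. A weak pooled region that overlapped it, from 10772395 to 10772710 (11.9, rank 10310), matched the same region of each replicate and adds no separate support.

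The other 6 pooled regions of daf-16 had values from 12.3 to 15.7. Those centred 11377 bp and 19493 bp from the outermost start had replicate 1 regions at ranks 1826 and 1742, with q-values of 0.0305 and 0.0297, and none within 200 bp in replicate 3. At the first of these, replicate 3 had an overlapping region with its centre 269 bp away (10.2, rank 2151). A region 15233 bp from that start was matched within 200 bp in replicate 1 alone, at rank 8612, while replicate 3 had a higher ranked overlapping region with its centre 203 bp away (10.4, rank 1935). Those at 4202 bp and 23052 bp were matched in replicate 3 alone, at ranks 14417 and 9877. A region at 222 bp, beside the first starts, was matched in both, at rank 26200 in replicate 1 and rank 7105 in replicate 3. The strongest replicate 1 region of the gene, from 10763091 to 10763394 (12.6, rank 1026, q-value 0.0167), lay 140 bp downstream of an internal start and had no pooled region. Replicate 1 had 20 regions in the daf-16 window (4.21 to 12.6), 5 at a q-value under 0.05, and replicate 3 had 13 (4.68 to 18.3), none of them at it. The strongest pooled region was thus nearest the 2 innermost starts, those of transcripts R13H8.1a.1 and R13H8.1e.1.

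**Figure D3:**
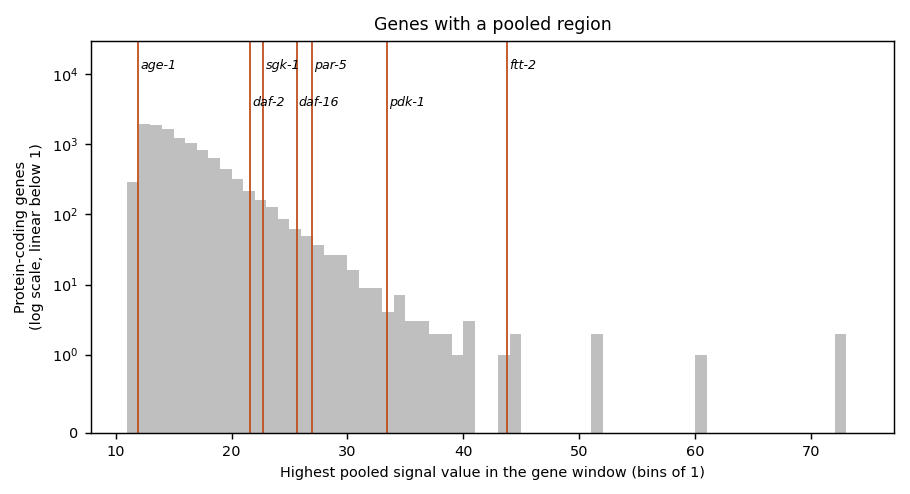
Histogram of the highest pooled signal value in the window of each of the 11188 protein-coding genes with a pooled region, in bins of 1, with counts on a log axis that is linear below 1. Lines mark the 7 members with a pooled region, from age-1 (11.9) to ftt-2 (43.8).

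Placed among all 19973 protein-coding genes by highest pooled value, ftt-2 was in place 8, pdk-1 in place 30, par-5 in place 158 and daf-16 in place 229. sgk-1 was in place 517, daf-2 in place 692 and age-1 in place 10995. The median over the 7 members with a pooled region was 25.6, against 14.9 over the 11188 protein-coding genes with one, without allowance for window length. Of the 25 pooled regions, 16 were intronic, 5 exonic and 4 upstream of the gene. A region within 200 bp was found in both replicates for 14 of the 25 (56%), in replicate 1 alone for 3, in replicate 3 alone for 6 and in neither for 2. The 14 include the overlapping pair of daf-16 regions that matched the same replicate regions. Over all pooled regions, 40.5% were found in both, and the difference, which rests on 25 member regions, was not tested.

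In the separate lists, a replicate 1 region was present at 10 of the 10 members and a replicate 3 region at 8 of 10, against 90% and 89.1% of all protein-coding genes. The members held 62 and 56 such regions, with 3.86 and 3.48 per 10 kb, against 3.16 and 3.19 over all. Replicate 1 regions at a q-value under 0.05 lay at 5 of 10 members (daf-16, ftt-2, par-5, pdk-1 and sgk-1), against 22.3% of all genes. In replicate 3, 0 of 10 members had one, against 0.165% of all.

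Sequence words within 100 bp of the centre were counted on both strands as a description. GAGAAAGA or GAGAGAGA, the words in capitals above, occurred in 6 of the 25 member regions (24%), in 5.85% of all 10489 pooled regions and in 12% of the 500 strongest. The 6 regions belonged to pdk-1, sgk-1, daf-2 and daf-16. The strongest regions of ftt-2, par-5, daf-16 and daf-2 held neither word, although the daf-16 region had a run of 24 purines or pyrimidines, a length reached in 1.26% of pooled regions. The run of 41 at daf-2 was reached in 0.114%. The homeodomain words TAATTA and TAATTG occurred in 3 of the 25 (12%), 2 of daf-16, its strongest included, and 1 of sgk-1. They occurred in 18.3% of all pooled regions and in 14% of the 500 strongest. Neither was near the centres at ftt-2 or pdk-1. GTAAACA, the core word bound by DAF-16 itself, occurred in 0 of the 25 and in 2.11% of all pooled regions. Median GC content was 41.8% in the member regions and 39.8% in all pooled regions.

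**Figure D4:**
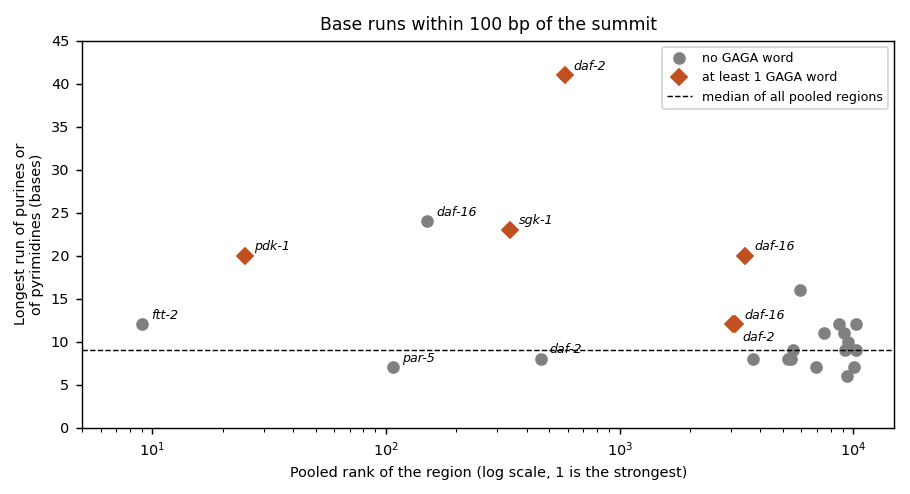
Longest run of purines or of pyrimidines within 100 bp of the centre against pooled rank (log axis) for the 25 member regions. Orange diamonds hold GAGAAAGA or GAGAGAGA, grey circles hold neither, and the dashed line is the median over all pooled regions, 9 bases; the daf-2 region at rank 583 has the longest run, 41, while ftt-2, at rank 9, has 12.

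A second list of 26 genes around the pathway was described in the same way. It held adaptors and insulins (aap-1, ist-1, daf-28, ins-1, ins-7), TOR pathway genes (let-363, daf-15, rict-1, rsks-1), regulators that act on AKT or DAF-16 (pptr-1, rle-1, smk-1, hcf-1, sir-2.1, cst-1, jnk-1), the eak group with sdf-9 and hsd-1, the factors skn-1 and hsf-1, and the DAF-16 targets sod-3 and mtl-1. None of the 26 had a reproducible peak or a pooled region at a q-value under 0.05, against 0.3% and 0.17% of all protein-coding genes. Any pooled region was present at 18 of 26, against 56% of all protein-coding genes. One among the 500 strongest was found at 2 of 26, against 3.85%. These 2 were pptr-1, which encodes a regulatory subunit of a phosphatase of AKT-1 (25.3, rank 166, q-value 0.347), and rle-1, which encodes a ubiquitin ligase of DAF-16 (21.9, rank 424, q-value 0.53), both named after their values were seen. At a q-value under 0.05 in replicate 1 there were 6 of 26, against 22.3% of all protein-coding genes. The median of the highest values was 15.7 over the 18 genes, close to that of all protein-coding genes with a region. sod-3 and mtl-1 had no pooled region.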

How the data were processed

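Per the labels, 2 ChIP-seq libraries were made. Per the deposited descriptions, the authors called peaks and background on each replicate and on pooled alignments against a control alignment, and derived the reproducible set from these lists by irreproducible discovery rate. Which aligner and peak caller were run is not given in the sources used here; the same holds for scaling and thresholds. Column 7 is a deposited signal value without a stated unit. Column 9 is the deposited −log10 of a q-value, converted here to a q-value. Only the ce11 lists were used. Every region ended within its chromosome of WBcel235, and genes came from Ensembl release 115.

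The members and lists were chosen with earlier results of these data known, and no test was made. A window ran from 5000 bp upstream of the outermost start to the gene end, and a region counted if it overlapped by 1 bp. Support meant centres within 200 bp. The threshold on q-values was 0.05. Named genes were the members, genes of the second list with a region past a threshold or, chosen after their values were seen, among the 500 strongest, genes at each described region, and neighbours in rank. The measure of runs of purines was also chosen with results known. Protein identity came from a global alignment of translated annotated coding sequence (longest product, BLOSUM62, gap penalties 11 and 1). The window count was tested by region centre on regions planted within 5000 bp upstream or just beyond. The rule of 1 bp overlap and the gene bodies were not tested in this way. Python 3.11.15, pandas 2.3.3, numpy 2.4.6, scipy 1.17.1, Biopython 1.88 and matplotlib 3.10.9 were used. The number of reads limits precision, and depth is unknown.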

Additional observations from a re-analysis of the deposited data

How the results depend on the processing

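The count of members with a reproducible peak, with a pooled region and with a pooled region at a q-value under 0.05 stayed at 2, 7 and 2 with windows of 2000 bp or 10000 bp upstream and when the region's centre had to lie in the window. Pooled regions numbered 23 to 28 under these settings, against 25. The count of members with a region among the 500 strongest was not part of this check. Its sgk-1 region was centred 4001 bp upstream of the outermost start, outside a window of 2000 bp. The reproducible peaks at or above the median of their set left 1 member, ftt-2. With either replicate left out and an equal number of the strongest regions of the other, members with such a region were 1 and 1: ftt-2 without replicate 3 and daf-16 without replicate 1. Without replicate 3, 5 members had a region at a q-value under 0.05, and without replicate 1, 0 did. The rank of the pdk-1 region was 47 without replicate 3 and 2091 without replicate 1, and that of ftt-2 was 32 and 1147. With a replicate left out, the other was cut to its strongest regions, as many as the pooled list held (10489). Under these settings, or with the pooled regions at or above the median value, 6 to 8 members had a region, against 7. age-1 had none under any of these 3 settings, its strongest regions ranking 24553 in replicate 1 and 10580 in replicate 3. Both akt-1 and akt-2 had one without replicate 3. Support in both replicates was 40% within 100 bp and 72% within 500 bp. The cause of the difference between replicates was not tested. No paired analysis was possible because there is 1 group.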
